A study of Mus musculus with 2 samples.

Results

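The 10 genes followed here belong to the TGF-β, BMP and activin signals and were measured in single cells of mouse dorsal skin: the ligands *Tgfb1*, *Tgfb2*, *Tgfb3*, *Inhba*, *Bmp2*, *Bmp4*, *Gdf10* and *Gdf15*, the receptor *Tgfbr2* and the secreted BMP antagonist *Grem1*. They were chosen by gene symbol, and each of the 10 symbols matched 1 row among the 33904 genes listed for both libraries. The Ctrl library came from skin treated with ethanol (EtOH), and the AD library from skin treated with MC903, also called calcipotriol, a vitamin D analog that causes an atopic dermatitis (AD)-like dermatitis when painted on skin. Both used female C57BL/6J mice of 7 weeks whose back hair had been removed with depilatory cream 24 h earlier, daily application (4.5 nmol MC903 each time in AD, solvent alone in Ctrl), collection on day 10, and the same 10x 3′ v3.1 chemistry after dissociation and removal of dead cells. The question here is where in the skin these signals were expressed and how their levels differed between the libraries. There was 1 library per condition, and how many animals it held is not given, so no test between conditions was possible: intervals are 95% intervals (exact Poisson for sums of unique molecular identifiers (UMIs), Clopper-Pearson for shares of cells) that cover counting error only.

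Members of this family are secreted dimers that bring together type I and type II serine/threonine kinase receptors, which then phosphorylate SMAD proteins. TGF-βs and activins signal mainly through SMAD2 and SMAD3, and BMPs through SMAD1, SMAD5 and SMAD9. TGF-βs are stored in the matrix in a latent form and drive collagen synthesis by fibroblasts, whereas BMPs and their antagonists time the hair cycle and are exchanged between the dermal papilla and the follicle epithelium. GDF15 is a distant member that is induced by cell stress and acts through a receptor of the hindbrain.

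After filtering, 11399 Ctrl and 8179 AD cells remained, with a median of 7813 and 6330 UMIs per cell and 105195951 and 61645227 UMIs in all. Before filtering, all barcodes held 125184653 and 76106062 UMIs. The libraries shared 35 barcodes. Cells were assigned to classes by marker genes, which held none of the 10 genes: 6178 Ctrl and 4967 AD cells were dermal fibroblasts (dFBs), and 12.6% and 14.4% stayed without a class. Every marker list was higher in its class than in the other cells, in both libraries, except that 5 of the 6 markers of the Areg fibroblast subset were higher in the AD library. The cells had been picked by these same markers, so this is no independent check of the class names. Of the gated dFBs, 5.57% in Ctrl and 1.97% in AD lay in clusters of other classes.

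The promoters of 8 of the 10 genes were listed by RefSeq (GRCm38.p6). Those of 4 genes are printed because their genes carry the findings below. In the Ctrl library *Inhba*, *Bmp4* and *Gdf10* had their highest fibroblast levels in the same hair follicle mesenchyme. *Gdf15* had the largest ratio of AD over Ctrl over all cells. Each is the 250 bases before the transcription start, 5′ to 3′ on the gene's strand. Capitals mark the SMAD box CAGAC or its reverse complement.
Inhba, chr13:16011601-16011850, plus strand: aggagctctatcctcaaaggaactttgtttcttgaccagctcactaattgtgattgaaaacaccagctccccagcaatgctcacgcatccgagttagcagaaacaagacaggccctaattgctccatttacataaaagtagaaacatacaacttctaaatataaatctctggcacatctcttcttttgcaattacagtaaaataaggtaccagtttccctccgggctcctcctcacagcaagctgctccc
Bmp4, chr14:46390670-46390919, minus strand: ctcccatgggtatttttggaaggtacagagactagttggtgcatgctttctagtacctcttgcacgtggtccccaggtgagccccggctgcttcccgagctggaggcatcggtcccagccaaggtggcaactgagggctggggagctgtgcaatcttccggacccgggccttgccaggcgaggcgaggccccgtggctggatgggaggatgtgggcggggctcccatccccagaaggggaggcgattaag
Gdf10, chr14:33923337-33923586, plus strand: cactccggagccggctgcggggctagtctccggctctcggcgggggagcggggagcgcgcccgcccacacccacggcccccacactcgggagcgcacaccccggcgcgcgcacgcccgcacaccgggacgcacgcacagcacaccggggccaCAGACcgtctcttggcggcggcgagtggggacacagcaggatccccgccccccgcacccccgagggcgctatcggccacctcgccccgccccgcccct
Gdf15, chr8:70632457-70632706, minus strand: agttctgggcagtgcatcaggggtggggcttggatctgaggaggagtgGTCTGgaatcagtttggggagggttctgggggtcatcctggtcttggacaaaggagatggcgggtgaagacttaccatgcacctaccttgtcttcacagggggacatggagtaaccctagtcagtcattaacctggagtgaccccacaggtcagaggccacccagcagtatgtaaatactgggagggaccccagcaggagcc
The SMAD box was found once in *Gdf10*, once in *Gdf15* and not in *Inhba* or *Bmp4*, and a second start that RefSeq lists for *Gdf15* (window chr8:70632096-70632345) also held 1 match. It occurred in 42.2% of the 32851 promoters of this length. The AP-1 site TGANTCA (in 6.75% of promoters) and the ATF4 and CEBP composite site TGATGCAA (in 0.791%) were in none of the 8 genes' windows, on either strand. These matches describe the letters of the windows and no more. *Inhba* lies on chromosome 13 (16011851 to 16031621), *Bmp4* and *Gdf10* lie apart on chromosome 14 (46383520 to 46390669 and 33923587 to 33937983), and *Gdf15* lies on chromosome 8 (70629393 to 70632456); all 4 are protein-coding genes of GENCODE M21 on GRCm38.

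The 10 genes had distinct cellular homes. Levels are UMIs of a gene scaled to 1000000 UMIs of the class (CPM), and they are compared between classes for one gene, not between genes. *Tgfb2*, *Grem1*, *Bmp4* and *Gdf10* were highest in dFBs in both libraries. *Tgfb2*, the TGF-β isoform of many mesenchymal cells, had 196 CPM in the Ctrl dFBs and 209 CPM in those of AD, above the next class in both libraries (lymphatic endothelium, 132 CPM, in Ctrl). In the Ctrl library 88.6% of all *Tgfb2* UMIs and 86.2% of all *Inhba* UMIs were in dFBs. *Tgfbr2*, the type II receptor that binds TGF-β, was detected in every class. It was at 598 CPM in Ctrl dFBs, which the interval of the lymphatic endothelium (592 to 709 CPM) overlapped, and at 678 CPM in AD dFBs, where no other class came near (next 403 CPM, adipocytes).

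*Tgfb1*, the isoform of immune and endothelial cells, was 202 CPM in T cells, 184 CPM in lymphatic endothelium, 172 CPM in blood endothelium and 155 CPM in macrophages of the Ctrl library, with 40.1 CPM in dFBs. Among those 4 classes, each neighbour in the order overlapped the next within its interval. In AD the order began with lymphatic endothelium (228 CPM) and macrophages (195 CPM), whose intervals again overlapped. *Tgfb3* and *Bmp2* were highest in pericytes and vascular smooth muscle cells (VSMCs). *Tgfb3* was 160 CPM in Ctrl and 128 CPM in AD pericytes, and in AD its interval overlapped that of the lymphatic endothelium (119 CPM). *Bmp2*, a ligand of the classical BMP pathway, was 218 CPM in Ctrl and 183 CPM in AD pericytes, followed by dFBs (68.5 CPM) in Ctrl and by keratinocytes (101 CPM) in AD.

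**Figure D1:**
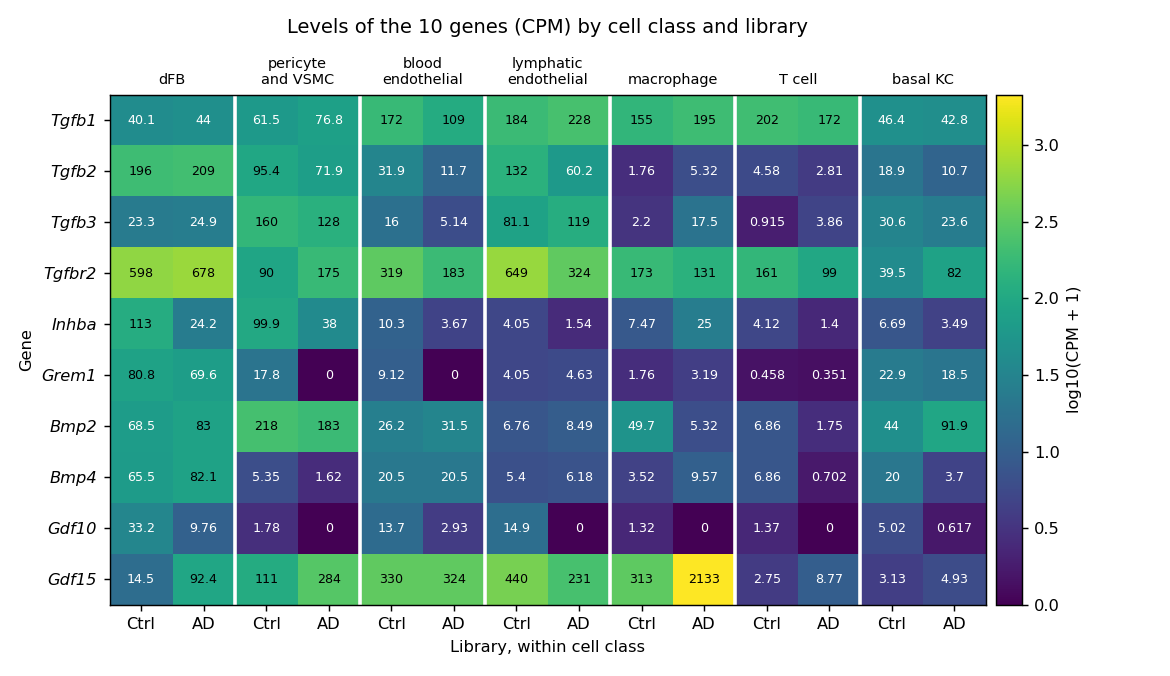
Level of each gene (rows) in the 7 classes with at least 100 cells in both libraries (columns, Ctrl and AD side by side); color is log10(CPM + 1) and each cell prints the CPM. *Tgfb2*, *Grem1*, *Bmp4* and *Gdf10* are highest in dFBs, *Tgfb3* and *Bmp2* in pericytes and VSMCs, and *Gdf15* reaches 2133 CPM in AD macrophages.

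In dFBs, 3 of the 10 genes differed by more than 2-fold between the libraries. *Gdf15* was higher in AD, and *Inhba*, which encodes the βA subunit of activin A, and *Gdf10*, also called *Bmp3b*, were lower. A minimum of 10 CPM in 1 of the libraries was passed by 9208 genes, of which 6.71% were past 2-fold higher and 13.4% past 2-fold lower, so 1 higher and 2 lower of 10 is near that background. All 10 genes passed this minimum. The median log2 ratio of AD over Ctrl was 0.11 for the 10 genes and -0.10 for all genes.

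*Inhba* had 6473 UMIs in Ctrl dFBs (113 CPM) and 925 in AD dFBs (24.2 CPM), a log2 ratio of -2.17 (-2.27 to -2.08, 1 CPM added to both levels, as in all ratios), or 4.50-fold lower. It was found in 24.4% of Ctrl and 7.43% of AD dFBs. With every cell thinned to 1000 UMIs these shares were 9.16% and 1.95%; T cells, at 1.46% and 0.926% unthinned, give the background. *Gdf10* had 1910 UMIs in Ctrl (33.2 CPM) and 373 in AD (9.76 CPM), a log2 ratio of -1.67 (-1.82 to -1.52), and was found in 10.3% and 3.18% of dFBs. Both genes were thus detected in fewer dFBs of the AD library.

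*Gdf15* went the other way, from 14.5 CPM (833 UMIs) in Ctrl to 92.4 CPM (3530 UMIs) in AD dFBs, a log2 ratio of 2.59 (2.49 to 2.70), or 6.03-fold. The share of dFBs with a UMI was 7.70% in Ctrl and 15.2% in AD, and 1.55% and 4.76% after thinning. The other 7 genes lay between -0.21 and 0.32 on the log2 scale. *Bmp4*, the BMP of dermal papilla and papillary dermis, was 65.5 CPM in Ctrl and 82.1 CPM in AD (0.32, 0.25 to 0.39), and *Bmp2* was 68.5 and 83.0 CPM (0.28, 0.21 to 0.34). *Grem1* was 80.8 and 69.6 CPM (-0.21, -0.28 to -0.14) but was found in 12.9% of Ctrl and 6.70% of AD dFBs. The 3 TGF-β ligands differed by 0.13 (*Tgfb1*), 0.09 (*Tgfb2*) and 0.09 (*Tgfb3*), and the interval of *Tgfb3* (-0.03 to 0.21) included 0. *Tgfbr2* was 598 and 678 CPM (0.18, 0.16 to 0.20). At full depth 2 of the 10 genes were found in a larger share of AD than of Ctrl dFBs, and 7 after thinning. The AD library was shallower, and no count over all genes stands beside these numbers. They are therefore not read as a result about the 10 genes.

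The make-up of the dFBs, as gated, differed between the libraries along with these levels. By subset markers, 443 Ctrl and 50 AD dFBs were gated as hair follicle mesenchyme, and 782 and 24 as dermal sheath. No subset was assigned to 1942 Ctrl and 2032 AD dFBs. When both subsets and the sub-clusters they dominate were left out, 4594 Ctrl and 4891 AD dFBs remained. Most of the left-out cells were Ctrl cells, so mainly the Ctrl levels changed. Without them *Inhba* was 26.4 CPM in Ctrl and 21.4 CPM in AD, a log2 ratio of -0.29 (-0.42 to -0.16), and *Gdf10* was 12.9 and 9.62 CPM, a ratio of -0.39 (-0.57 to -0.21). Neither was then past 2-fold. *Bmp4* moved in the other direction, to 42.1 and 80.1 CPM and a log2 ratio of 0.91 (0.83 to 1.00). *Tgfb2* and *Tgfbr2* turned to -0.18 (-0.23 to -0.14) and -0.13 (-0.15 to -0.10), and *Bmp2* to -0.05 (-0.12 to 0.02). *Gdf15* kept a ratio of 2.42 (2.30 to 2.53). Whether AD skin held fewer such cells, dissociation released fewer of them or the gate caught fewer of them cannot be told apart here. Of the gate's markers, *Wif1*, *Hhip*, *Rspo3* and *Corin* were lower in AD than in Ctrl gated follicle mesenchyme (*Hhip* 1401 CPM in Ctrl, 170 CPM in AD). *Sox2* (73.0 and 201 CPM) and *Notum* (122 and 164 CPM) were higher.

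**Figure D2:**
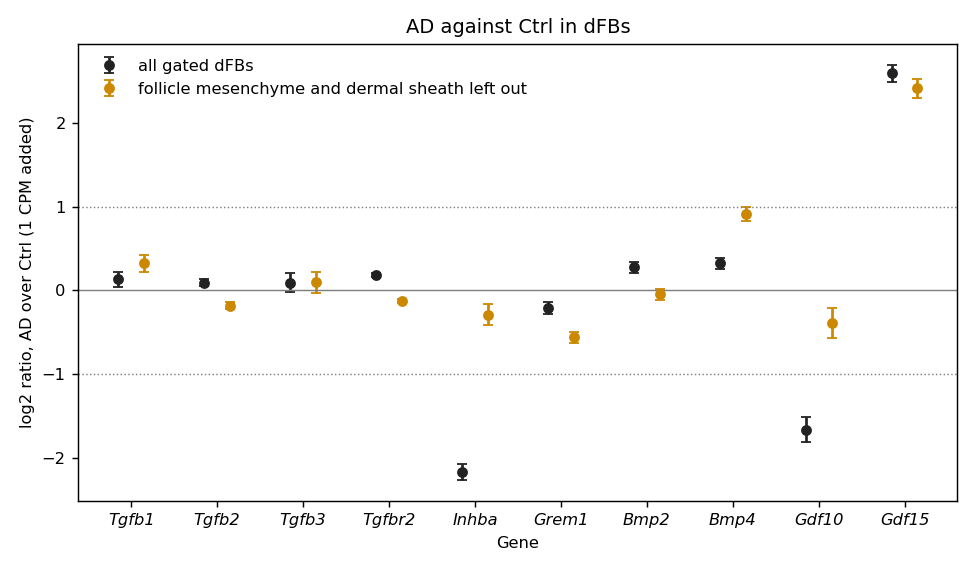
log2 ratio of AD over Ctrl (y axis, 1 CPM added) for each gene (x axis) in all gated dFBs (black) and with hair follicle mesenchyme and dermal sheath left out (orange); bars are 95% intervals of counting error and dotted lines mark 2-fold. *Inhba* and *Gdf10* come within 2-fold when those cells are left out, and *Gdf15* stays at 2.42.

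Within each library, the subsets separated the ligands further. A subset name did not always cover the same cells in both libraries: of 22 sub-clusters of the dFBs, 15 drew at least 95% of their cells from 1 library and held 87.9% of all dFBs. Hair follicle mesenchyme, the dermal papilla lineage that instructs the follicle, had the highest *Inhba* level of any subset in both libraries: 860 CPM (2993 UMIs) in Ctrl and 308 CPM (98 UMIs) in AD. Compared with all other dFBs of the same library, this was 13.2-fold in Ctrl and 13.5-fold in AD. Of the 443 Ctrl cells, 358 lay in a sub-cluster with 0 AD cells, and of the 50 AD cells, 45 lay in a sub-cluster of 391 AD and 2 Ctrl cells that was named peri-follicular and papillary, so these are different clusters and the values between libraries are given side by side. *Bmp4* was also highest there, at 334 CPM in Ctrl and 330 CPM (105 UMIs) in AD, and the 2 intervals overlapped. *Gdf10* was 299 CPM in Ctrl and 31.4 CPM (10 UMIs) in AD follicle mesenchyme. In Ctrl, these 3 of the 10 genes were past 2-fold higher than in other dFBs, against 13.8% of all genes. In AD it was 5 of 10 against 15% of all genes, in 50 cells, with *Tgfb1* (110 CPM) and *Tgfb3* (53.5 CPM) added to the 3. Between the libraries, 4 of the 10 genes were past 2-fold higher in AD follicle mesenchyme (11.7% of all genes) and 3 lower (22.9%). The higher ones were *Tgfb1*, *Tgfb3*, *Bmp2* and *Gdf15*, with 14 to 35 UMIs each in AD. In the dermal sheath, the smooth-muscle-like layer around the follicle, *Tgfb1* was the 1 gene of 10 past 2-fold higher than in other Ctrl dFBs (70.3 CPM, 2.05-fold, 8.05% of all genes). In AD its 24 cells had 3 such genes of 9 (18.3%), *Tgfb1*, *Inhba* and *Grem1*.

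Clustering of the dFBs that used neither the 10 genes nor their pathway list showed the same concentration. One sub-cluster of 484 Ctrl cells and 0 AD cells, most of them gated as follicle mesenchyme, held 49.7% of all *Inhba* UMIs of the Ctrl library, 50.3% of its *Gdf10* UMIs and 27.4% of its *Bmp4* UMIs. There *Inhba* was at 950 CPM and found in 94.8% of cells, *Gdf10* at 297 CPM in 68.4%, and *Bmp4* at 342 CPM in 76.9%.

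*Gdf10* had a second home. Areg cells, the adipogenesis-regulating fibroblasts marked by *F3* and *Fmo2*, had 143 CPM (237 UMIs) in Ctrl and 35.6 CPM (269 UMIs) in AD, a log2 ratio of -1.98 (-2.23 to -1.72). The gate held 223 Ctrl and 1069 AD cells. Against other dFBs of the same library, *Gdf10* was 4.65-fold higher in Ctrl and 8.34-fold higher in AD Areg cells, the 1 gene of 10 past 2-fold in each (2.63% of all genes in Ctrl and 1.55% in AD). In AD, 73.6% of all *Gdf10* UMIs fell in 1 Areg-dominated sub-cluster of 356 cells, at 129 CPM, and the 144 Ctrl cells of that sub-cluster had 354 CPM.

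*Grem1*, which binds BMP2 and BMP4 and keeps them from their receptors, was highest in the peri-follicular and papillary subset, at 290 CPM (1349 UMIs) in Ctrl and 397 CPM (1123 UMIs) in AD. It was 4.59-fold higher than in other dFBs in Ctrl and 8.97-fold in AD. The AD value rested on few cells: 69 of 351 (19.7%) had a UMI, and 91 cells that lay in a reticular and preadipocyte sub-cluster held 94.7% of the UMIs (981 CPM), against 33.9 CPM in the other 260. Among the named subsets, reticular and preadipocyte cells followed in Ctrl (103 CPM). The 1942 Ctrl dFBs without a subset were above them, at 152 CPM (2393 UMIs). In AD they were at 81.6 CPM, below the 24 dermal sheath cells (157 CPM, 103 to 230), and Areg cells (3.62 and 2.65 CPM) and HI-AP cells (8.12 and 1.81 CPM) were low. In Ctrl a sub-cluster of 93 cells reached 984 CPM with *Grem1* in 71.0% of cells. In the AD library that same reticular and preadipocyte sub-cluster, of 757 cells, held 78.8% of all *Grem1* UMIs. The same peri-follicular subset also carried *Inhba* (279 CPM in Ctrl, 103 CPM in AD) and *Bmp4* (155 and 159 CPM). Of the 10 genes, 3 in Ctrl (2.75% of all genes) and 4 in AD (6.28%) were past 2-fold higher there than in other dFBs. In Ctrl, 170 of the 631 cells lay in follicle mesenchyme and dermal sheath sub-clusters. They held 74.5% of the *Inhba* and 58.2% of the *Bmp4* UMIs of the subset. Without them *Inhba* was 93.7 CPM and *Bmp4* 85.5 CPM. Ctrl dFBs without follicle mesenchyme and dermal sheath had 26.4 and 42.1 CPM. All Ctrl dFBs, which include those cells, had 113 and 65.5 CPM.

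HI-AP cells, the *Dpp4*+ *Pi16*+ adipocyte progenitors of the hypodermal interstitium, had the highest *Bmp2* level of the subsets in both libraries. *Bmp2* was 134 CPM in Ctrl and 153 CPM in AD, against other dFBs 3.43-fold in Ctrl (1 of 10 genes past 2-fold, 6.67% of all genes) and 1.96-fold in AD (0 of 10, 2.63%). *Tgfbr2* was 864 CPM in Ctrl, the highest of any subset, and 763 CPM in AD, where reticular and preadipocyte cells were higher (820 CPM, 803 to 838). *Inhba* was nearly absent, with 5.73 CPM in Ctrl and 1 UMI among 379 cells in AD. *Bmp4* was the one gene past 2-fold between the libraries in HI-AP cells, at 20.5 CPM in Ctrl against 53.5 CPM in AD (1.34, 1.06 to 1.61), where 8.24% of all genes were past 2-fold higher and 10.6% lower.

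**Figure D3:**
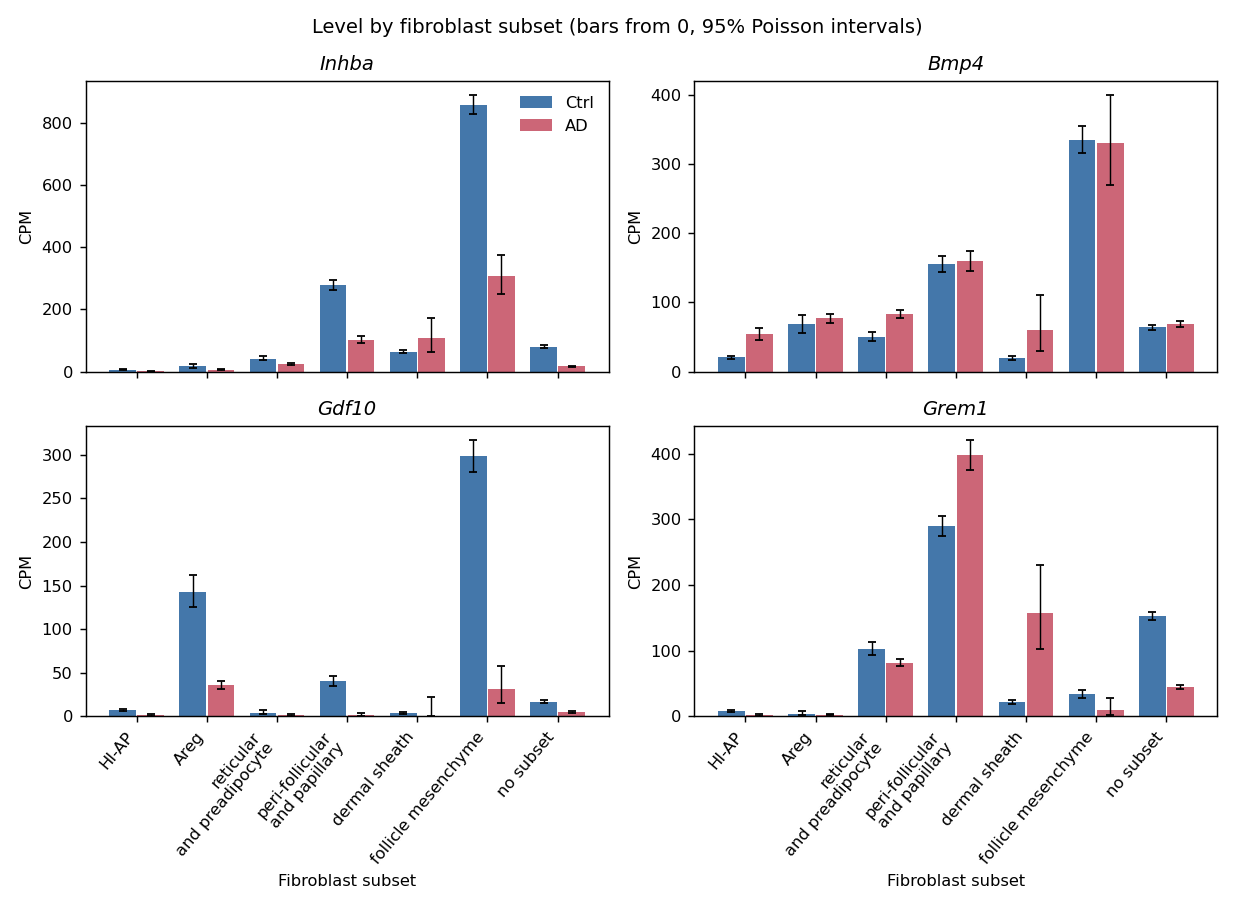
Level in CPM (y axis, bars from 0) of *Inhba*, *Bmp4*, *Gdf10* and *Grem1* in each fibroblast subset (x axis), Ctrl in blue and AD in red, with 95% Poisson intervals. *Inhba*, *Bmp4* and *Gdf10* peak in Ctrl follicle mesenchyme and *Grem1* in the peri-follicular and papillary subset.

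Between the libraries, *Inhba* was lower in AD than in Ctrl in the gated peri-follicular subset (279 and 103 CPM, -1.43, -1.61 to -1.24) and in gated follicle mesenchyme (860 and 308 CPM, -1.48, -1.78 to -1.19). In the peri-follicular subset this rested on 170 of its 631 Ctrl cells, which lay in follicle mesenchyme and dermal sheath sub-clusters and held 74.5% of its *Inhba* UMIs; 0 AD cells of the subset lay there. Without those cells *Inhba* was 93.7 CPM in Ctrl and 103 CPM in AD (0.13, -0.10 to 0.36), and *Bmp4* was 85.5 and 159 CPM (0.89, 0.68 to 1.10). AD cells of the subset that shared a sub-cluster with 45 gated follicle mesenchyme cells stayed in. Only Ctrl cells were left out, so the libraries were not treated alike. In the peri-follicular subset 2 of the 10 genes were past 2-fold lower (13.3% of all genes) and 1 higher (6.65%). *Gdf10* was the other lower gene, with 187 UMIs in Ctrl (40.2 CPM) and 5 in AD (1.77 CPM), and 26 UMIs in Ctrl (7.38 CPM) without those cells. In Areg cells 2 were lower (11.8%), *Gdf10* and *Inhba* (-1.58), and 1 higher (7.7%). In reticular and preadipocyte cells 0 were lower (12%) and 1 higher (8.89%). *Gdf15* was the gene past 2-fold higher in all 3 subsets. In dFBs without a subset 3 were lower (14%) and 2 higher (9.24%). The lower ones were *Inhba* (-2.22), *Grem1* (-1.75) and *Gdf10* (-1.61), and the higher ones *Gdf15* (1.42) and *Bmp2* (1.06).

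*Gdf15*, a stress-induced cytokine, showed the largest difference of the 10 genes in the skin as a whole. Over all cells it had 3615 UMIs (34.4 CPM) in Ctrl and 11443 UMIs (186 CPM) in AD. Macrophages had 313 CPM (713 UMIs in 483 cells) in Ctrl and 2133 CPM (4012 UMIs in 222 cells) in AD, a log2 ratio of 2.76 (2.65 to 2.88). They held 19.7% of all *Gdf15* UMIs in Ctrl and 35.1% in AD. The share of macrophages with a UMI was 32.9% and 64.0%, at median depths of 4476 and 7505 UMIs, and 17.5% and 46.2% when thinned. T cells gave 0.972% and 3.94%, and 0.163% and 1.62% thinned.

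In dFBs *Gdf15* was spread unevenly. Reticular and preadipocyte cells had 18.6 CPM in Ctrl and 189 CPM (1973 UMIs) in AD, and the peri-follicular subset had 21.3 and 140 CPM. Areg cells had 8.45 and 28.6 CPM, and HI-AP cells 8.96 and 13.01 CPM. Against other dFBs of the same library, *Gdf15* was 3.33-fold higher in AD reticular and preadipocyte cells, the 1 gene of 10 past 2-fold there (0.808% of all genes), and in Ctrl 0 of 10 were (0.862%). Macrophage markers in AD dFBs summed to 23.4 CPM for the 6 genes (all 6 above 0, 0.288 to 14.5 CPM each), against 29.2 CPM in Ctrl dFBs and 5168 CPM in AD macrophages. In the AD dFBs with no UMI of any of these markers *Gdf15* was 71.4 CPM, against 13.9 CPM in Ctrl, a log2 ratio of 2.28. AD T cells, with a similar marker sum of 23.9 CPM, had 8.77 CPM of *Gdf15*.

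Among the other classes with at least 100 cells in both libraries, endothelial cells and pericytes had the most *Gdf15*. Blood endothelium had 330 CPM in Ctrl and 324 CPM in AD (-0.03, -0.24 to 0.19), and lymphatic endothelium had 440 and 231 CPM (-0.93, -1.16 to -0.70). Pericytes and VSMCs had 111 and 284 CPM (1.35, 1.05 to 1.66). In AD, 41 dendritic cells (253 CPM, 149 UMIs), 66 erythroid cells (180 CPM, 33 UMIs) and 126 adipocytes (143 CPM, 320 UMIs) were also above dFBs. Basal keratinocytes (KCs) had only 3.13 and 4.93 CPM. Cells without a class held 34.1% of *Gdf15* UMIs in Ctrl and 19.5% in AD, so the class sums leave out part of the signal.

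**Figure D4:**
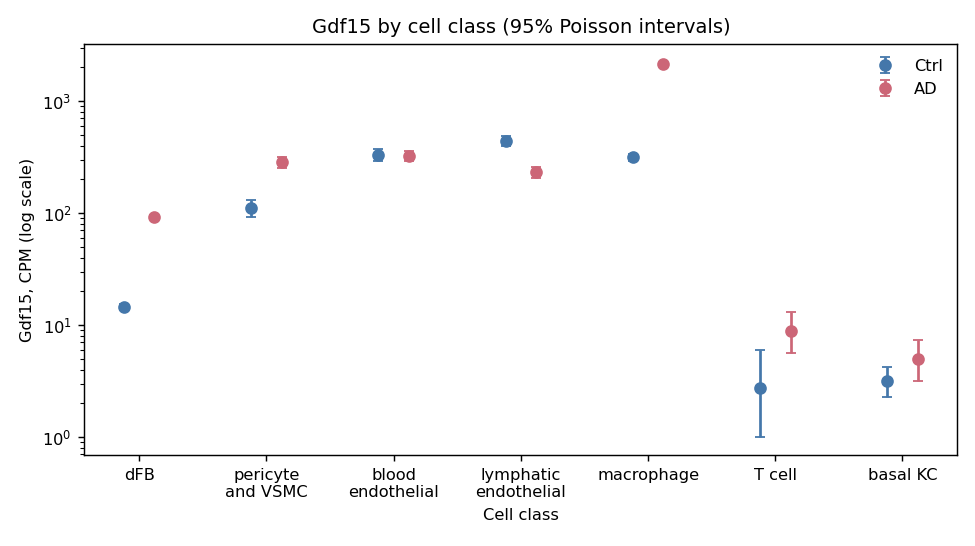
*Gdf15* level (CPM, log axis) in the 7 classes with at least 100 cells in both libraries (x axis), Ctrl in blue and AD in red, with 95% Poisson intervals. Macrophages reach 2133 CPM in AD, dFBs go from 14.5 to 92.4 CPM, and T cells and basal KCs stay under 10 CPM.

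Outside dFBs, the minimum was met by 72 pairs of gene and class in 11 classes, of which 23 were past 2-fold higher in AD and 16 lower. Over all genes in these classes, 12.2% of the pairs were higher and 14.8% lower. The 6 classes with at least 100 cells in both libraries held 38 of these pairs, with 6 higher and 10 lower. The shares of all genes in these 6 classes ran from 2.49% to 7.61% higher and from 8.66% to 12.9% lower. The values that follow are from these classes. In macrophages 3 of 6 genes were higher (6.11% of all genes) and 1 lower (9.62%). Besides *Gdf15*, *Inhba* was 7.47 CPM (17 UMIs) in Ctrl and 25.0 CPM (47 UMIs) in AD (1.62, 0.86 to 2.40), and *Tgfb3* was 2.20 CPM (5 UMIs) and 17.5 CPM (33 UMIs; 2.54, 1.45 to 3.55). *Bmp2* was the lower one, at 49.7 CPM (113 UMIs) and 5.32 CPM (10 UMIs; -3.00, -3.88 to -2.18). *Tgfb1* was 155 and 195 CPM in the same cells (0.33, 0.11 to 0.54).

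In basal KCs, 2 of 7 genes were higher (4.1% of all genes) and 1 lower (10.4%). *Bmp2* was 44.0 CPM in Ctrl and 91.9 CPM in AD (1.05, 0.87 to 1.22), and *Tgfbr2* was 39.5 and 82.0 CPM (1.04, 0.85 to 1.22). *Bmp4* was 20.004 CPM (275 UMIs) and 3.70 CPM (18 UMIs; -2.16, -2.74 to -1.59). In the keratinocytes as a whole (1579 Ctrl and 372 AD cells), *Bmp2* was 64.0 and 101 CPM and within 2-fold (0.66, 0.51 to 0.80). There *Tgfbr2* had a ratio of 1.31 (1.14 to 1.47) and *Bmp4* of -1.53 (-2.05 to -1.03). Of these keratinocytes, 1037 in Ctrl and 336 in AD were basal. Suprabasal cells numbered 413 in Ctrl and were under the minimum of 20 cells in AD, so the whole class compares different mixtures. The median log2 ratio of all genes was -0.19 in basal KCs, so the 3 basal KC ratios lie 0.19 higher relative to that median. It was -0.08 in the keratinocytes as a whole. It was -0.18 in T cells and -0.19 in blood endothelium.

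In pericytes and VSMCs, 1 of 8 genes was higher (7.61% of all genes; *Gdf15*) and 2 lower (11.3%). *Inhba* was 99.9 CPM (112 UMIs) in Ctrl and 38.0 CPM (47 UMIs) in AD (-1.37, -1.88 to -0.88). *Grem1* had 20 UMIs in Ctrl (17.8 CPM) and 0 in 157 AD cells, a count that allows up to 2.42 CPM (the level of 3 UMIs). Those 20 UMIs were in only 1.40% of the 215 Ctrl cells, in a class from which doublets were not removed. In lymphatic endothelium 0 of 6 genes were higher (6.78%) and 2 lower (10.7%). *Tgfb2* was 132 CPM and 60.2 CPM (-1.12, -1.57 to -0.69), *Gdf10* had 11 UMIs and 0, and *Tgfbr2* just missed 2-fold at 649 and 324 CPM (-0.998, -1.19 to -0.81). In blood endothelium 0 of 9 were higher (4.73%) and 4 lower (12.9%): *Tgfb2*, *Tgfb3*, *Inhba* and *Gdf10*, each with at most 28 UMIs. In T cells neither of the 2 genes above the minimum was past 2-fold in either direction (2.49% and 8.66% of all genes). *Tgfb1* was 202 and 172 CPM (-0.23, -0.41 to -0.04) and *Tgfbr2* 161 and 98.96 CPM (-0.70, -0.93 to -0.47).

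The wider pathway in dFBs was described with a list of 82 genes in 7 groups, of which 63 had at least 10 CPM. Among them 11 were past 2-fold higher in AD and 16 lower, and the median log2 ratio was 0.13, beside 6.71% higher, 13.4% lower and a median of -0.10 over all genes. These shares of all genes are also the ones to read each group's counts against. Genes of the list with smaller ratios than the 12 largest are named because their group's count was small, after their values were seen. Leaving out the 10 genes, 53 passed the minimum, with 10 higher, 14 lower and a median of 0.22. Without hair follicle mesenchyme and dermal sheath the list had 10 higher and 14 lower of 61, against 7.62% and 11% of all genes.

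Storage of latent TGF-β was the group with the lowest median (-0.93), with 2 higher and 3 lower of 7. *Ltbp1* (250 to 88.5 CPM, -1.49) and *Ltbp3* (66.5 to 20.7 CPM, -1.64), which encode proteins that anchor the latent complex in the matrix, were lower. *Ltbp2* (15.8 to 1.62 CPM, -2.68), listed here as a member of the same gene family, was lower too. *Thbs1*, which encodes thrombospondin-1, an activator of latent TGF-β, was 206 CPM in Ctrl and 1959 CPM in AD (3.25, 3.22 to 3.27), and *Lrrc32*, which encodes GARP, a cell-surface anchor of latent TGF-β, was 43.1 and 96.1 CPM (1.14). Leaving out follicle mesenchyme and dermal sheath gave -1.49, -2.68, -1.73 and 2.96 for *Ltbp1*, *Ltbp2*, *Ltbp3* and *Thbs1*.

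Among 10 TGF-β response genes, 2 were higher and 3 lower. *Postn*, the matricellular protein periostin, was 1066 CPM in Ctrl and 63.9 CPM in AD (-4.04, -4.10 to -3.98), and *Cilp*, a cartilage matrix protein that binds TGF-β1, was 384 and 86.5 CPM (-2.14). *Ltbp2* was the third. The higher ones were *Ccn2*, which encodes the matricellular protein CTGF, at 66.6 and 151 CPM (1.17), and *Smad7*, an inhibitory SMAD, at 126 and 300 CPM (1.25). Of 7 BMP response genes 1 was higher and 0 lower: *Id3*, an inhibitor of basic helix-loop-helix factors, was 536 CPM in Ctrl and 2358 CPM in AD (2.13, 2.12 to 2.15). Of 7 SMADs, 1 was higher, *Smad7* again, and 0 lower.

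Of 13 ligands, 1 was higher and 5 lower: *Gdf15* against *Inhba*, *Gdf10*, *Bmp3*, *Bmp6* and *Bmp7*, the last at 29.2 and 12.1 CPM (-1.21). *Bmp6* was 15.9 CPM and 0.602 CPM (-3.40) and *Bmp3*, which antagonizes other BMPs, 18.3 and 3.87 CPM (-1.98). Of 11 extracellular inhibitors 2 were higher and 4 lower, and *Sostdc1*, an antagonist of BMPs and WNTs made by the dermal papilla, was 51.6 CPM and 1.70 CPM (-4.28). The other lower inhibitors were *Fstl3* (-1.32), *Bmper* (-1.25) and *Twsg1* (-1.10), and the higher ones *Nbl1* (1.19) and *Fst* (1.03), which encodes the activin antagonist follistatin. Without follicle mesenchyme and dermal sheath *Sostdc1* was at -0.92, *Bmp3* at -0.56 and *Bmp6* at -1.85. Of 11 receptors 3 were higher and 2 lower. *Acvr1b*, the activin type I receptor, was 10.7 and 29.98 CPM (1.40), and *Acvrl1*, the ALK1 receptor of BMP9, 36.5 and 11.6 CPM (-1.57). *Tgfbr3*, the coreceptor betaglycan, and *Acvr2b*, an activin type II receptor, were also higher (1.32 and 1.06), and *Eng*, the coreceptor endoglin, lower (-1.04).

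**Figure D5:**
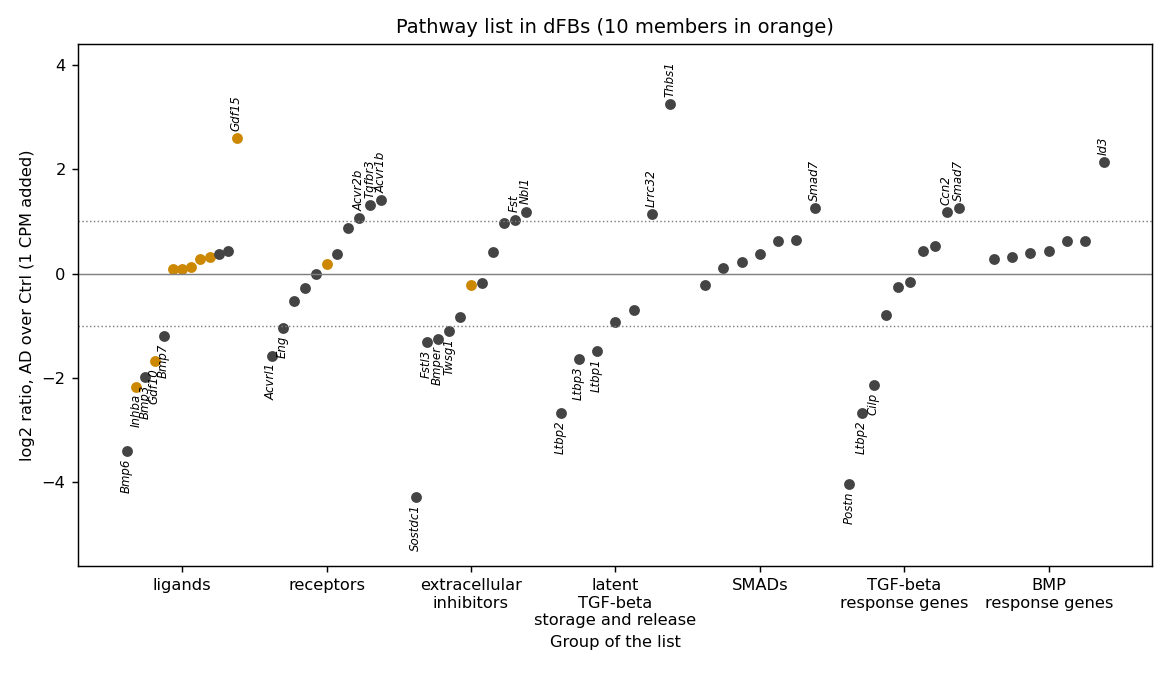
log2 ratio of AD dFBs over Ctrl dFBs (y axis, 1 CPM added) for the listed genes past the minimum of 10 CPM, by group (x axis) and in rising order within each; orange points are the 10 genes and names are printed past 2-fold (dotted lines). *Thbs1* at 3.25 and *Sostdc1* at -4.28 are the extremes.

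The genes with the most similar pattern were found by Pearson's r of log2(CPM + 10) over 26 points, the classes of each library with at least 20 cells, among 8720 genes; the points share the 2 libraries and differ in depth. For *Gdf15* they were *Tifa* (0.80), *Lgmn* (0.80) and *Dusp3* (0.80). For *Inhba*, no gene came above *Runx1t1* (0.73), with *Fap* (0.69) and *Morrbid* (0.69) next. *Grem1* was nearest to *Wif1* (0.83), *Gxylt2* (0.82) and *Myoc* (0.81), *Bmp4* to *Efemp1* (0.79), *Mfap2* (0.79) and *Dcn* (0.77), and *Gdf10* to *Lum* (0.82), *Flrt2* (0.81) and *Akr1c14* (0.81). *Dcn* and *Lum* are dFB markers used for the gate, and *Wif1* marks follicle mesenchyme in it. *Tgfb1* was nearest to *Fli1* (0.85), *Tgfb2* to *Pard3b* (0.89), *Tgfb3* to *Pacsin3* (0.88), *Tgfbr2* to *Zcchc24* (0.84) and *Bmp2* to *Tent5b* (0.87).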

How the data were processed

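The deposited files hold, per library, a matrix of raw UMI counts per gene and barcode that the authors made with Cell Ranger. The submitters' processing notes name Cell Ranger 3.1.0, Seurat 5.0 and mm10, the matrix headers name Cell Ranger 5.0.0, and the study's methods another version. Of the listed gene IDs, 32475 of 33904 are in GENCODE M21, all 10 genes included. Labels and methods differ on the collagenase.

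Barcodes were kept if they had between 200 and 6000 genes and no more than 10% of UMIs from mitochondrial genes (1199 Ctrl and 599 AD barcodes were left out). A cell joined the class whose markers had the highest mean score if it was 1.5 times the next with at least 2 markers detected. A dFB joined a subset if its mean z-score led by 0.25 SD with 2 markers. The members and lists were chosen with earlier results of these data known, and the gate rules after marker and level tables had been seen. UMIs were summed per class and library. All 10 genes are named, the 12 other pathway genes past 2-fold with the largest log2 ratios (the other such genes were added after seeing their values), and, by likeness, the 3 nearest genes for 5 members and the nearest for the rest. Ratios of single classes are given where both libraries held at least 100 cells, a limit set after seeing the data. Past 2-fold required 10 CPM in either library. Ratios carry the Clopper-Pearson interval of the 2 counts, with the same 1 CPM added. Doublets were kept, because the automatic scrublet threshold marked 395 Ctrl and 0 AD cells. On simulated dFB counts of 8861 genes, 200 of 200 genes changed by 2.5-fold or more were recovered, with 0 calls among 8661 unchanged genes. The simulated counts were Poisson draws at the Ctrl levels with no variation between libraries or animals. They check the arithmetic of the rule, and cannot measure its error between single libraries. Alternatives covered the cell filter, gates, clustering, scaling, pseudocount, minimum level, doublet scores and left-out cells. Python 3.11.15, scanpy 1.11.5, leidenalg 0.10.2 and scipy 1.17.1 were used.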

Additional observations from a re-analysis of the deposited data

Results flagged for a closer look

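*Inhba* differed in opposite directions between classes. It was higher in AD macrophages (log2 ratio 1.62, 17 and 47 UMIs) and lower in AD dFBs (-2.17) and AD pericytes and VSMCs (-1.37). *Bmp2* was higher in AD basal KCs (1.05) and lower in AD macrophages (-3.00, 113 and 10 UMIs). With 1 library per condition, the difference between the classes was not tested for either gene.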

How the results depend on the processing

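The dFB ratios of *Inhba* and *Gdf10* were below 0, and those of *Gdf15*, *Bmp4* and *Tgfb1* above 0, in every one of the 10 alternatives run. *Inhba* ranged from -2.57 (mean CPM over cells) to -0.29 and *Gdf10* from -2.20 (all deposited barcodes) to -0.39. Both were nearest to 0 without follicle mesenchyme and dermal sheath. There the count of genes past 2-fold lower went from 2 to 0 (13.4% and 11% of all genes). This alternative was chosen after seeing the data. *Gdf15* ranged from 2.02 to 2.88. *Grem1* ran from -1.11 (mean CPM over cells) to 0.18 (stricter gate), so its direction in dFBs is not settled, and *Tgfb2*, *Tgfb3*, *Tgfbr2* and *Bmp2* also crossed 0 in 1 alternative each. Outside dFBs the lower pairs of gene and class went from 16 to 10 with a stricter gate and with a pseudocount of 10 CPM (the cause was not tested), and to 31 with no minimum level, which tests more pairs. With all deposited barcodes, genes past 2-fold higher than in the other dFBs of the AD library went from 3 to 1 in dermal sheath and from 5 to 3 in follicle mesenchyme. With sub-clusters as subsets they went from 1 to 0 in Ctrl dermal sheath (0 also by mean CPM over cells), from 0 to 1 in AD HI-AP cells and from 1 to 2 in AD reticular and preadipocyte cells. Thinning took the genes found in a larger share of AD dFBs from 2 to 7, with no count over all genes beside them. Counting only dFBs without macrophage marker UMIs, or leaving out the highest 5% of doublet scores, both added after seeing the data, kept 1 gene higher and 2 lower. For the counts of pairs, subsets, thinning, marker-free cells and doublet scores, no share of all genes under the same setting is given. They are not read as a result about the 10 genes. The planned removal of doublets by the automatic threshold was not run, because it marked 0 AD cells. In the peri-follicular subset the *Inhba* ratio went from -1.43 to 0.13 without the Ctrl cells of follicle mesenchyme and dermal sheath sub-clusters, also an alternative added after seeing the data. No paired analysis was possible because each condition has 1 library. Levels rest on as few as 24 cells (AD dermal sheath) and 50 cells (AD follicle mesenchyme), and a count of 0 there allows 18.1 and 9.43 CPM (the level of 3 UMIs).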

Other observations

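In the 41 basophils of the AD library *Inhba* was at 108 CPM (25 UMIs, 70.0 to 160 CPM, all in 4 cells), above AD dFBs at 24.2 CPM; Ctrl had too few basophils (7) for a value. In the hair follicle matrix and inner sheath cells of the Ctrl library (88 cells, 0 in AD), *Bmp4* was at 40.9 CPM (57 UMIs) and *Tgfb2* at 33.0 CPM (46 UMIs). In the 126 AD adipocytes *Tgfbr2* was at 403 CPM (901 UMIs) and *Tgfb1* at 4.92 CPM (11 UMIs), the lowest *Tgfb1* level of the AD classes.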
